A study of Mus musculus with 10 samples.

Results

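The genes described here make or sense the prostanoids and leukotrienes, lipid mediators formed from arachidonic acid. The members were 10 genes, Ptgs1, Ptgs2, Ptges, Ptgir, Tbxas1, Hpgds, Alox5, Alox5ap, Alox15 and Ltc4s, of 27670 genes on the array. They were found by gene name or by the accession of the probe, with Hpgds listed under its older name Ptgds2, and 16 of 41174 probes measured them.

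RNA came from whole lungs of female BALB/c mice, an inbred laboratory strain, aged 6 to 8 weeks when bought. In the cigarette smoke-exposed group, 5 mice were kept in a whole-body chamber and given mainstream smoke of 12 unfiltered reference cigarettes, 2 exposures of 50 minutes a day, 5 days a week, over 8 weeks. The control group was 5 mice that breathed room air. Each lung was hybridised to an Agilent array read in a red and a green channel, and between 64.9 and 77.5% of spots on an array exceeded background clearly in red. The small number of arrays bounds the precision.

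The channels were assigned from marker genes, because the files hold 2 channels and the labels name 1 dye. That dye, Cy3, is by convention read in green, so the labels taken alone would put the lung RNA there, against the assignment used here. In the scanner's processed signal, however, Scgb1a1, a secretory gene of lung airways, was brighter in red by 6.72 on the log2 scale, and Ddx3y, a gene of the Y chromosome, was well above background in green on 10 of 10 arrays and in red on 2 of 10. Between the groups, 1759 probes were called in red alone and 6 in green alone, each scaled to its 75th percentile on the array. Red was therefore taken as the likely channel of the female lung, and green as a reference RNA with a male share, and the direction of every ratio rests on this. Levels below are log2 ratios of red over green, and differences are smoke minus room air. Cyp1b1, an enzyme induced by aromatic hydrocarbons of smoke, checks the labels: its level was -1.61 ± 0.27 with room air and 1.45 ± 0.16 with smoke (SD, n = 5 per group). The deposited table of processed values has these groups the other way round, and every direction here rests on the scanner files as assigned to the samples.

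Cyclooxygenases, encoded by Ptgs1 and Ptgs2, turn arachidonic acid into prostaglandin H2, from which separate terminal synthases make prostaglandin E2, prostaglandin D2, prostacyclin and thromboxane A2. The 5-lipoxygenase pathway takes the same acid to leukotriene A4, and further to leukotriene B4, which attracts leukocytes, or to the cysteinyl leukotrienes, which narrow airways and make vessels leak. In the lung, macrophages, mast cells and other leukocytes are known sources of both kinds of mediator.

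Of the 10 members, 7 were higher in the smoke-exposed lungs at an adjusted p under 0.05 and 0 were lower, where 8.21% of all genes and 7.06% of all probes passed in either direction. Of all genes, each taken by its probe with the brightest red signal, 4.94% were higher and 3.27% lower. The median log2 difference was 0.56 over the members and -0.0042 over all genes. The groups were apart for 6 of the 10 members and for 7.85% of all genes. Ptgs1, Ptgir, Tbxas1, Hpgds, Alox5, Alox5ap and Ltc4s passed, and Ptgs2, Ptges and Alox15 did not. Adjusted p-values are from limma, with Benjamini-Hochberg adjustment over 41173 probes. The exact Wilcoxon test, which cannot go below a two-sided p of 0.00794 here, called 0 probes and 0 members after adjustment, with 5444 probes at an unadjusted p under 0.05 where limma had 7479. The deposited table, which averages both channels, called 0 of the 9 members it held in either order of its groups. Of all its probes it called 13 of 30099. In bulk lung RNA, more cells of a type and more RNA per cell, or fewer and less, cannot be told apart.

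**Figure D1:**
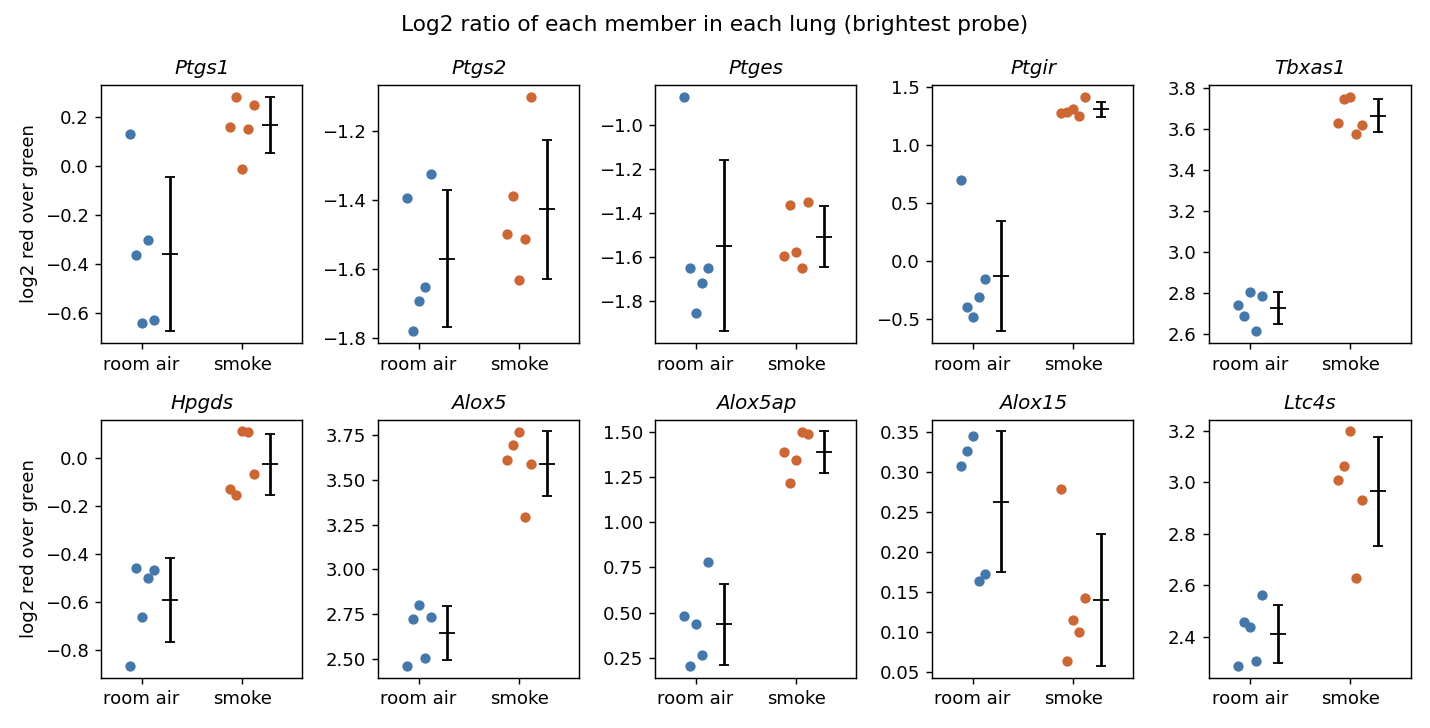
Log2 ratio of red over green for the 10 members, by the probe with the brightest red signal, in each of 5 lungs per group, with the group mean and SD beside the points. The vertical axis differs between panels. The groups are apart for Ptgir, Tbxas1, Hpgds, Alox5, Alox5ap and Ltc4s and overlap for Ptgs1, Ptgs2, Ptges and Alox15.

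Ptgs1 encodes the cyclooxygenase that most tissues make constantly. Its log2 ratios in room air replicates 1 to 5 were 0.13, -0.36, -0.64, -0.30 and -0.63, and in smoke replicates 1 to 5 they were 0.16, 0.28, -0.01, 0.15 and 0.25. Room air replicate 1 lay among the smoke-exposed lungs, and the other lungs with room air lay below all of them. Ptgs1 was higher with smoke by 0.53 ± 0.13 (SE), a fold change of 1.44 with a limma adjusted p of 0.0330. The call was kept without room air replicate 1 or smoke replicate 3. It was lost without any of the 8 other arrays, where the difference was 0.46 to 0.54. The red channel alone gave 0.53 with an adjusted p of 0.150. Red alone here and below is the scanner's processed red signal scaled to each array's 75th percentile, unless quantile normalization is named, which starts from normexp and gave Ptgs1 an adjusted p of 0.0669. Over the alternatives without the deposited table the adjusted p ran from 7.76e-04 to 0.165. Ptgs2 encodes the cyclooxygenase known as inducible by inflammatory signals. Its brightest probe read -1.40, -1.78, -1.69, -1.65 and -1.33 with room air and -1.5, -1.39, -1.63, -1.51 and -1.10 with smoke. The groups overlapped over most of their range. The difference was 0.14, with a 95% interval of -0.10 to 0.39 and a limma adjusted p of 0.615, and a further probe gave 0.14 with an adjusted p of 0.757. The brightest probe gave 0.062 without smoke replicate 5, 0.091 without room air replicate 2, and 0.035 to 0.093 with median centring, scale normalization or either red setting.

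Ptges encodes the microsomal synthase of prostaglandin E2. It read -0.87, -1.65, -1.86, -1.72 and -1.65 with room air and -1.59, -1.36, -1.58, -1.65 and -1.35 with smoke. Room air replicate 1 was the highest of all 10 lungs. The other lungs with room air lay below those with smoke, except that smoke replicate 4 was level with room air replicates 2 and 5. The difference was 0.042 (95% interval -0.31 to 0.39, limma adjusted p = 0.948), and its sign turned with median centring, with scale normalization and without room air replicate 3 or 4. Without room air replicate 1 it was 0.21, with an adjusted p of 0.145.

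Tbxas1 encodes thromboxane A synthase, which makes the platelet activator and vessel constrictor thromboxane A2. Its brightest probe read 2.74, 2.69, 2.80, 2.62 and 2.79 with room air and 3.63, 3.74, 3.76, 3.57 and 3.62 with smoke. The lowest smoke-exposed lung stood well above the highest lung with room air. The difference was 0.94 ± 0.06 (SE), a fold change of 1.91 with a 95% interval of 1.76 to 2.08 and a limma adjusted p of 2.73e-06. A neighbouring probe gave the same difference, 0.94 (adjusted p = 0.00159). The call was kept at 0.54 (adjusted p = 0.00741) with the scanner's own ratio and at 0.62 (adjusted p = 3.09e-04) with all probes averaged, and the difference was larger in red alone, at 1.57 (fold change 2.98), or 1.45 with quantile normalization. The green signal of this probe also differed between the groups, as given further on, and the interval above is that of the ratio alone. A further probe was not well above background in red on any of 10 arrays and has no fold here. The first 30 bases of the 60-base probes are given, in lower case with no part marked, to show that separate stretches were measured, with positions in the files' build, mm7, and no strand given there. The brightest probe lies at chr6:39015282-39015341, the neighbour directly beside it at chr6:39015222-39015281, and the dark probe at chr6:38959585-38959644. Whether these stretches are coding or untranslated was not annotated here.
Tbxas1 brightest probe: ttgtgtcacgctgatatagaaggcacgtgg
Tbxas1 neighbouring probe: ttccacttcagctagaatccaaatctgccc
Tbxas1 dark probe: aatatatacataaccagaaaatacctccta

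Hpgds encodes the hematopoietic synthase of prostaglandin D2, known from mast cells, macrophages and T helper cells. It read -0.87, -0.46, -0.66, -0.50 and -0.47 with room air and -0.13, -0.15, 0.11, 0.11 and -0.07 with smoke. Every smoke-exposed lung was above every lung with room air. The difference was 0.57 ± 0.09 (SE), a fold change of 1.48 with a limma adjusted p of 0.00252. The spot was dim, well above background in red on 3 of 5 arrays with room air and 5 of 5 with smoke. In the red channel alone, after the scanner's own background subtraction, the difference was 2.12 ± 0.27 (SE), a fold change of 4.34 (adjusted p = 0.00201), and the scanner's own ratio gave 2.25 (adjusted p = 0.00281). In red alone with quantile normalization it was 0.55 (adjusted p = 0.00101), close to the ratio's value, so the direction was shared and the size was not settled.

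Ptgir encodes the receptor for prostacyclin, which relaxes vessels and restrains platelets. Its brightest probe read 0.70, -0.39, -0.48, -0.31 and -0.15 with room air and 1.28, 1.29, 1.31, 1.26 and 1.42 with smoke. The smoke-exposed lungs were tightly grouped, while room air replicate 1 stood above the other lungs of its group and below all those with smoke. The difference was 1.44 ± 0.18 (SE), a fold change of 2.71 with a 95% interval of 2.04 to 3.59 and a limma adjusted p of 7.32e-04. Another probe for the gene did not follow it, with a difference of 0.067 (95% interval -0.054 to 0.19, adjusted p = 0.641). That probe was well above background in red on 5 of 5 arrays of each group and in green on 10 of 10. On 8 of 10 arrays it read 1.27 to 1.53 times its local background in red. In replicate 4 it read 3.78 times background with room air and 4.43 with smoke, and the difference within that slide was -0.10. The gene's call rests on the brighter probe. The mean of both probes differed by 0.75 (adjusted p = 0.00121). The brighter probe lies at chr7:14674320-14674379 and the dimmer at chr7:14671086-14671145 in mm7, shown as above because they differ.
Ptgir brighter probe: ccaaatgacaacaacagataaaaccacaaa
Ptgir dimmer probe: tgttggtgacctccatcttcttctgcaacg

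Alox5 encodes 5-lipoxygenase, which starts leukotriene synthesis. Its brightest probe read 2.46, 2.73, 2.80, 2.50 and 2.74 with room air and 3.61, 3.69, 3.77, 3.29 and 3.59 with smoke. The groups were apart, with smoke replicate 4 the lowest of its group. The difference was 0.95 ± 0.10 (SE), a fold change of 1.93 with a limma adjusted p of 1.51e-04. The gene's other probes gave 1.02 and 0.88, with adjusted p-values of 3.75e-04 and 7.25e-04. Alox5ap encodes the membrane protein FLAP, which hands arachidonic acid to 5-lipoxygenase. It read 0.48, 0.20, 0.44, 0.27 and 0.78 with room air and 1.39, 1.22, 1.34, 1.5 and 1.49 with smoke. All smoke-exposed lungs lay above room air replicate 5, the highest of its group. The difference was 0.96 ± 0.10 (SE), a fold change of 1.94 with a limma adjusted p of 2.12e-04.

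Ltc4s encodes leukotriene C4 synthase, which makes the first cysteinyl leukotriene. It read 2.29, 2.46, 2.44, 2.31 and 2.56 with room air and 3.01, 3.06, 3.20, 2.63 and 2.93 with smoke. The groups were apart, though smoke replicate 4 came close to room air replicate 5. The difference was 0.55 ± 0.10 (SE), a fold change of 1.47 with a limma adjusted p of 0.00495. The scanner's own ratio gave 0.41 with an adjusted p of 0.30, in a range of 7.95e-04 to 0.30 over alternatives without the deposited table.

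Alox15 encodes a lipoxygenase that oxygenates arachidonic acid at other positions than 5-lipoxygenase does. It read 0.31, 0.33, 0.34, 0.16 and 0.17 with room air and 0.28, 0.06, 0.11, 0.10 and 0.14 with smoke. Smoke replicate 1 lay within the range of room air and the rest lay below it. The difference was -0.12 (95% interval -0.25 to 0.0032, limma adjusted p = 0.292). The spot was well above background in red on 5 of 5 arrays with room air and 2 of 5 with smoke, and in green on 0 of 10. In the red channel alone the difference was -1.12 (adjusted p = 0.166), with quantile normalization it was -0.22 (adjusted p = 0.0914), and with the scanner's own ratio -1.27 (adjusted p = 0.191).

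**Figure D2:**
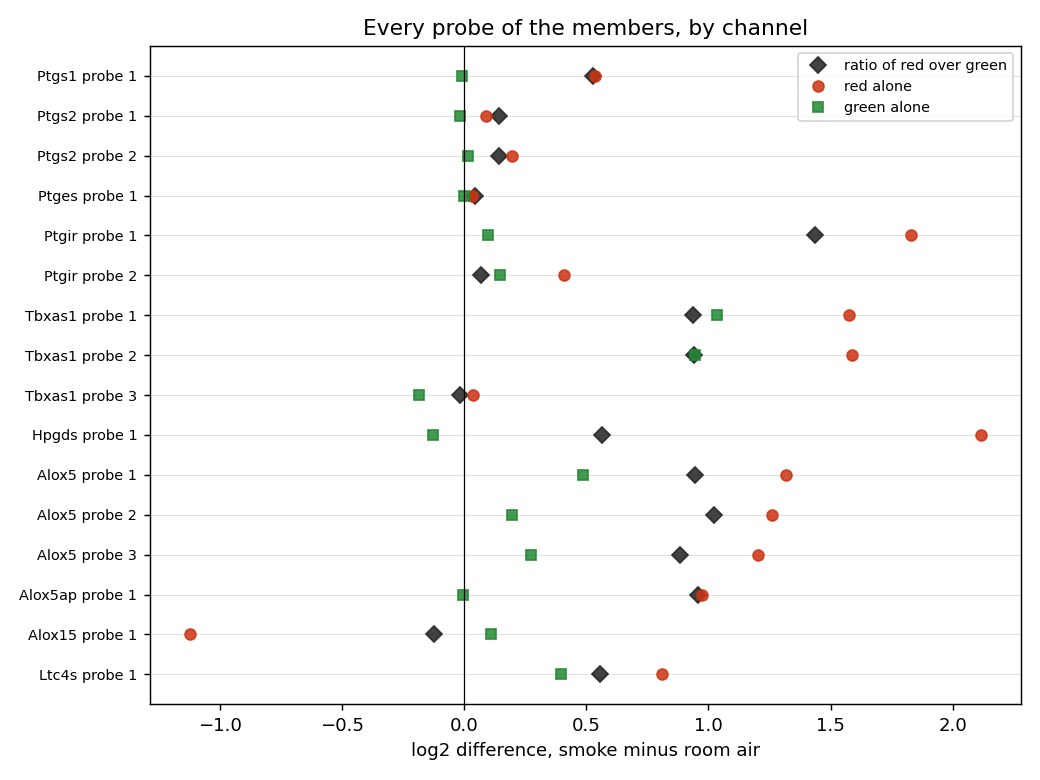
Log2 difference between smoke and room air for the 16 probes of the members, from the ratio of red over green, from red alone scaled to the 75th percentile and from green alone, with probes of a gene numbered from the brightest in red. The green difference was 1.03 at the brightest Tbxas1 probe, 0.49 at that of Alox5 and 0.40 for Ltc4s, while for Ptgs1 and Alox5ap it was near 0.

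The green signal, measured in the same scans, was called different between the groups at 6 of 41173 probes, with 465 at an unadjusted limma p under 0.05. The brightest Tbxas1 probe was called, with a green difference of 1.03 and an adjusted p of 0.0180. At the brightest Alox5 probe and the Ltc4s probe the green differences were 0.49 and 0.40, and neither was called. At these probes red was far brighter than green, by 3.92, 3.53 and 3.53 on the log2 scale. The neighbouring Tbxas1 probe and the other Alox5 probes had red brighter by 3.50, 3.65 and 3.17. Their green differences were 0.94, 0.20 and 0.27, and none was called. The same was looked at over the array after these values were seen, among probes well above background in both channels on all arrays whose red difference exceeded 1. The median green difference was 0.022 for 120 probes with red and green within 1 of each other, 0.64 for 56 with red brighter by 3 to 5, and 1.13 for 10 with red brighter by more than 5. The cause was not tested. Red alone put Tbxas1 at 1.57, Alox5 at 1.32 and Ltc4s at 0.81, each larger than its ratio gave, with limma adjusted p-values of 2.39e-04, 3.95e-04 and 0.0356. Quantile normalization of red gave 1.45, 1.3 and 0.72. For Alox5ap, bright in both channels, red alone gave 0.97.

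Unequal change of 2 members was tested for 6 pairs that share a substrate or a step, by an exact two-sided permutation test over the 10 arrays with adjustment over the 6 pairs. The smoke difference of Alox5 exceeded that of Alox15 by 1.07, and that of Tbxas1 exceeded that of Ptges by 0.90, both with an adjusted p of 0.0238. The Alox15 spot was well above background in red on 2 of 5 arrays with smoke and in green on 0 of 10, where the offset draws ratios towards 0, so the size of the first is not settled. These 2 pairs kept their call without any single array and in red alone, at 2.44 and 1.54, or 1.52 and 1.44 with quantile normalization, a setting added for the pairs after their other values were seen. Hpgds exceeded Ptges by 0.52 (adjusted p = 0.0286), in red alone by 2.09 or, with quantile normalization, 0.54, but by 0.29 (adjusted p = 0.0635) without room air replicate 1, and the call was also lost without smoke replicate 1, 3 or 4. Ptgs1 exceeded Ptgs2 by 0.38 (adjusted p = 0.0286), lost in both red settings and without smoke replicate 1, 2, 3 or 4. Hpgds against Tbxas1 was -0.37 (adjusted p = 0.0286), lost without room air replicate 2 or 4 or smoke replicate 1, 2 or 3, and it turned to 0.54 (adjusted p = 0.143) in red alone scaled to the 75th percentile but was -0.90 (adjusted p = 0.0159) with quantile normalization. The Hpgds spot was dim too, well above background in red on 3 of 5 arrays with room air, so the sizes of both its differences are not settled. Ltc4s minus Alox5ap was -0.40 (adjusted p = 0.0476), lost in both red settings and, among single arrays left out, kept only without room air replicate 5 or smoke replicate 2. All 6 differences had the same sign in 5 of 5 slides, where the exact sign-flip test within slides reaches at best p = 0.0625, its value for each pair.

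Start regions are shown for the members that rose by more than 1.5-fold and have one in the table, to give the sequence at their starts. Whether these members moved together was not tested. The RefSeq table, build GRCm38.p6, gave promoters for 8 of the 10 members, and Alox5ap and Alox15 are named only. Each sequence is the 250 bases before the gene start, on the gene's strand. Capitals mark matches on either strand to TGACNNNGC, the core of the antioxidant response element, GCGTG, the core of the xenobiotic response element, the AP-1 site TGACTCA, or GAGGAA, a core bound by PU.1. Of 32851 promoters of this length, 10.2%, 28.2%, 4.46% and 23.3% hold them. Ptgir at chr7:16906240-16906489 on the plus strand has 1 match to the first and 2 to the last. Tbxas1 at chr6:38918736-38918985 on the plus strand and Alox5 at chr6:116461179-116461428 on the minus strand have 1 match each to GAGGAA. So do Ptgs1, Hpgds and the uncalled Ptgs2 and Ptges, not shown, while Ltc4s has 0. GCGTG has 1 match each in Ptgs2 and Ptges and 0 in the other 6, and the AP-1 site has 0 in all 8. A match is a description of letters, not a site or a cause.
Ptgir promoter: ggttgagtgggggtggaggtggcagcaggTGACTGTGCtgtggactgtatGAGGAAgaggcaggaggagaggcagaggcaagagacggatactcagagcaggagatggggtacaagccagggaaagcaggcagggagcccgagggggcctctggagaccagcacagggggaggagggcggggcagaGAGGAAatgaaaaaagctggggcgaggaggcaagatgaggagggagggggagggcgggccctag
Tbxas1 promoter: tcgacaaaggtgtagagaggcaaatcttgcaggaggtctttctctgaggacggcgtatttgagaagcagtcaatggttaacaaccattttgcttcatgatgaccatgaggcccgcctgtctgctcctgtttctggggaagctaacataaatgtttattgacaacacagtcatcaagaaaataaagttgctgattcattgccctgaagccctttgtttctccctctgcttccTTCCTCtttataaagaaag
Alox5 promoter: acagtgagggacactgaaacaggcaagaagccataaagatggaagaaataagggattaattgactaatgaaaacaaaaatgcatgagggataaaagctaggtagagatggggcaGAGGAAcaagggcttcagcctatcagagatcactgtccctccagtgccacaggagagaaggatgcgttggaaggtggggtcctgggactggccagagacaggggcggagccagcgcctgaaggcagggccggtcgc

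**Figure D3:**
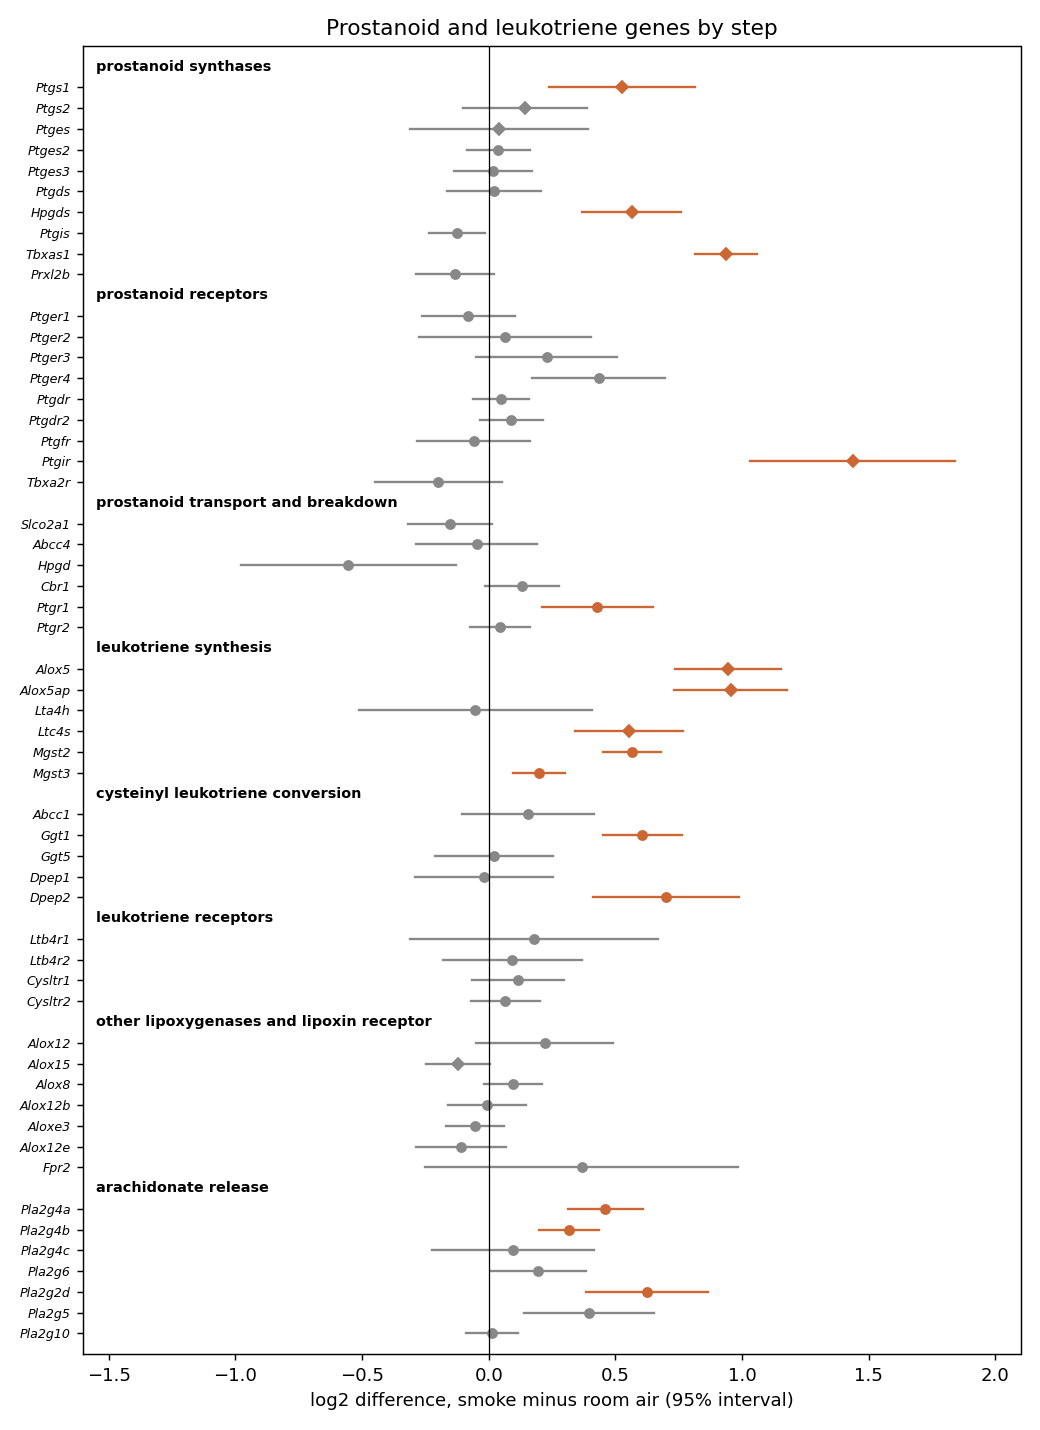
Log2 difference between smoke and room air with its 95% interval for 54 genes of the pathway by step, with members as diamonds and the rest as circles. Genes past the adjusted p threshold, in orange, all lie to the right of 0, and no leukotriene receptor is among them.

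Of 55 listed genes of the wider pathway, 54 were measured, and 15 were higher with smoke and 0 lower. Outside the members the count was 8 of 44, with a median log2 difference of 0.077. These 44 include a prostanoid receptor and a phospholipase that were not well above background on any array. Among 10 prostanoid synthases, with a median of 0.040, the 3 that rose were Ptgs1, Hpgds and Tbxas1, and among 9 prostanoid receptors, with a median of 0.064, it was Ptgir. Ptges3 and Prxl2b, the brightest other synthases, gave 0.018 and -0.13, and the receptors Ptger2 and Tbxa2r gave 0.064 and -0.20, with adjusted p-values of 0.950, 0.371, 0.912 and 0.426. Ptger4, a receptor for prostaglandin E2 named after its values were seen, had a difference of 0.43 with an adjusted p of 0.0524, of 0.0192 with slide as a block, and of 0.246 in red alone and 0.278 with quantile normalization. Of 6 measured genes of prostanoid transport and breakdown, with a median of -0.0018, 1 rose, Ptgr1, by 0.43 (fold change 1.35, adjusted p = 0.0245). Hpgd, the enzyme that inactivates prostaglandins, had a difference of -0.55, below 0 in 5 of 5 slides, with an adjusted p of 0.132 by the ratio, 0.0311 in red alone, 0.0121 with quantile normalization of red and 0.00440 with slide as a block. The transporter Slco2a1 gave -0.15 (adjusted p = 0.325).

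In leukotriene synthesis 5 of 6 genes rose, with a median difference of 0.56. Beside Alox5, Alox5ap and Ltc4s these were Mgst2 and Mgst3, microsomal glutathione transferases, higher by 0.57 and 0.20 (adjusted p = 8.01e-05 and 0.0238). In red alone Mgst3 lost its call, at 0.15 with an adjusted p of 0.844, and 0.13 (adjusted p = 0.690) with quantile normalization. Lta4h, whose hydrolase makes leukotriene B4, gave -0.053 (95% interval -0.51 to 0.41). Of 5 genes that export or trim cysteinyl leukotrienes, with a median of 0.16, 2 rose. Ggt1 was higher by 0.61 (adjusted p = 3.76e-04) and Dpep2 by 0.70 (adjusted p = 0.00738), in red alone by 1.15 and 1.09, and with quantile normalization by 0.67 and 0.83. Abcc1 and Dpep1 gave 0.16 and -0.018. Of the 4 leukotriene receptors, with a median of 0.10, 0 passed, and Ltb4r1 and Cysltr1 gave 0.18 and 0.12 with intervals of -0.31 to 0.67 and -0.067 to 0.30. A list of 7 genes, the other lipoxygenases and the lipoxin receptor Fpr2, had 0 past the threshold and a median of -0.0062, with 0.22 for Alox12 and 0.37 for Fpr2.

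Among the 7 phospholipases listed for release of arachidonic acid, with a median of 0.32, 3 rose and 0 were lower. Pla2g4a, the cytosolic enzyme that favours arachidonate, was higher by 0.46 (fold change 1.38, adjusted p = 0.00171), Pla2g4b by 0.32 (adjusted p = 0.00402) and the secreted Pla2g2d by 0.63 (adjusted p = 0.00490). In red alone Pla2g2d was higher by 1.11, while Pla2g4a and Pla2g4b, at 0.45 and 0.35, did not pass, with adjusted p-values of 0.10 and 0.191. With quantile normalization these were 0.39 and 0.32, with adjusted p-values of 0.0465 and 0.0790. Pla2g5 and Pla2g6 gave 0.40 and 0.20, with adjusted p-values of 0.0718 and 0.244 and, with slide as a block, 0.0355 and 0.0493, so that the count for this step was 5 with the block. In red alone their adjusted p-values were 0.20 and 0.725, and with quantile normalization 0.0586 and 0.554. Of the 7, Pla2g2d passed in both red settings, Pla2g4a in the second, and the rest in neither.

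Cell types that make or answer these mediators were followed by lists of marker genes, whose summed red signal is given in units of each array's 75th percentile. Of 7 measured macrophage markers 6 rose and 0 were lower, with a median log2 difference of 1.39. Their sum in replicates 1 to 5 was 55.6, 49.5, 49.5, 48.8 and 45.3 with room air and 190, 202.7, 188.5, 175.2 and 213.5 with smoke. Every smoke-exposed lung was far above every lung with room air. Chil3, the brightest, was higher by 2.12 (fold change 4.33, adjusted p = 1.38e-04). Fabp4, named after its values were seen, gave -0.25 (adjusted p = 0.781). The part of macrophages in the members' values was not tested.

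Of 8 mast cell markers, with a median of -0.13, 2 were lower and 0 higher. These were Cma1 and Fcer1a, named after their values were seen, at -0.51 and -0.17. Neither passed in red alone, at -0.76 and -0.52 (adjusted p = 0.205 and 0.541), or with quantile normalization, at -0.56 and -0.15 (adjusted p = 0.172 and 0.228), while Cpa3 was lower in red alone (adjusted p = 0.0275) and not by quantile normalization (0.194). The sum of all 8 was 6.46, 7.68, 7.0, 6.79 and 6.79 with room air and 6.41, 5.90, 5.30, 5.54 and 5.71 with smoke, and Kit, the brightest, gave -0.15. The groups were apart by a small margin through Kit, which did not pass (adjusted p = 0.703). Without Kit the sum ran from 0.66 to 1.11 with room air and from 0.46 to 0.99 with smoke, which overlap. Within each slide, however, that sum was lower with smoke. Of 8 neutrophil markers, with a median of 0.31, 2 rose, and 3 with slide as a block and 1 in red alone. Their sum was 190.4, 39.4, 30, 34.3 and 47.0 with room air and 92.9, 71.9, 53.5, 60.4 and 68.1 with smoke, and S100a9, the brightest, gave 0.16. Room air replicate 1 was the highest of all lungs, and the others with room air lay below every lung with smoke. Of 6 platelet markers 1 rose, Pf4, the brightest, by 1.06 (adjusted p = 0.0015), and the sum was 8.17, 5.86, 5.49, 6.20 and 5.84 with room air and 15.4, 11.9, 9.68, 11.8 and 12.1 with smoke. Pf4 makes up most of that sum. The 5 other markers gave -0.078 to 0.19 and did not pass, the list's median was 0.053, and without Pf4 the sum ran from 1.14 to 1.3 with room air and from 0.81 to 2.16 with smoke.

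Of 5 dendritic cell markers, with a median of 0.072, 2 rose, among them Ccr7, the brightest, by 0.44. In red alone 0 passed and with quantile normalization 1, and with slide as a block 1 was lower beside the 2. Their sum was 1.51, 1.37, 1.49, 1.64 and 1.75 with room air and 1.95, 1.95, 1.62, 1.81 and 1.77 with smoke, which overlapped. Within each slide it was higher with smoke. Without Ccr7, however, the sum ran from 0.79 to 1.07 with room air and from 0.79 to 0.89 with smoke, and its direction differed between slides. Of 4 measured eosinophil markers, with a median of 0.056, 0 passed, Ccr3, the brightest, gave -0.21, and Il5ra was not well above background on any array. Their sum was 0.092, 0.11, 0.081, 0.20 and 0.22 with room air and 0.085, 0.10, 0.080, 0.16 and 0.13 with smoke, in overlapping ranges. It was lower with smoke within each slide. Without Ccr3 the sum ran from 0.029 to 0.078 with room air and from 0.035 to 0.088 with smoke, higher with smoke in some slides and lower in others. In each of the other lists no marker was below background on all arrays. Some mast cell, neutrophil and eosinophil markers, however, were well above it in red on few arrays, and the offset draws such ratios towards 0. The part of these cells in the members' values was not tested.

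Of 6 endothelial markers, with a median of -0.11, 1 was lower by the ratio, and Cldn5, the brightest, gave -0.12 (adjusted p = 0.654). Red alone differed from the ratio, with 3 lower, and 4 with quantile normalization. In these settings Cldn5 was among them, at -0.75 (adjusted p = 0.0110) and -0.82 (adjusted p = 0.00101). The summed red signal was 181.1, 196.1, 211.8, 202.6 and 223.1 with room air and 141.8, 139.7, 143.1, 132.1 and 149.4 with smoke, with every smoke-exposed lung below every other. Without Cldn5 the ranges overlapped, at 80.8 to 106.7 with room air and 69.6 to 83.5 with smoke, though each slide had the lower sum with smoke. Of 5 smooth muscle markers, with a median of -0.35, 1 was lower, Acta2, the brightest, with a difference of -0.45 (adjusted p = 0.00897), and the sum was 117.5, 115.7, 98.5, 110.6 and 121.4 with room air and 83.8, 91.0, 91.6, 78.2 and 99.6 with smoke. These ranges overlapped through smoke replicate 5, and within each slide the sum was lower with smoke. With slide as a block 4 were lower, Acta2, Myh11, Cnn1 and Des, with limma adjusted p-values of 0.00213, 0.0339, 0.00887 and 0.00197. In red alone 2 were lower, without Acta2 (adjusted p = 0.170), and with quantile normalization 3. Of 5 alveolar type 2 markers, with a median of 0.087, 0 passed by the ratio and 1 in red alone, Sftpa1, at 0.60 (adjusted p = 0.0392), which quantile normalization did not call. Sftpc, the brightest, gave -0.13, and the sum was 1873, 2573, 1567, 2234 and 2665 with room air and 2171, 3287, 2094, 2000 and 3340 with smoke. Of 4 airway epithelial markers, with a median of 0.067, 0 passed, Scgb1a1, the brightest, gave -0.20, and the sum was 976.2, 1329, 949.2, 1175 and 1130 with room air and 1290, 1624, 945.1, 1045 and 1051 with smoke. Both sums overlapped between the groups. The first is mostly Sftpc, whose spot was saturated on 1 array. Without Sftpc it ran from 279.2 to 354 with room air and from 392.8 to 581.6 with smoke, so that every smoke-exposed lung was higher. The part of these cells was likewise not tested.

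**Figure D4:**
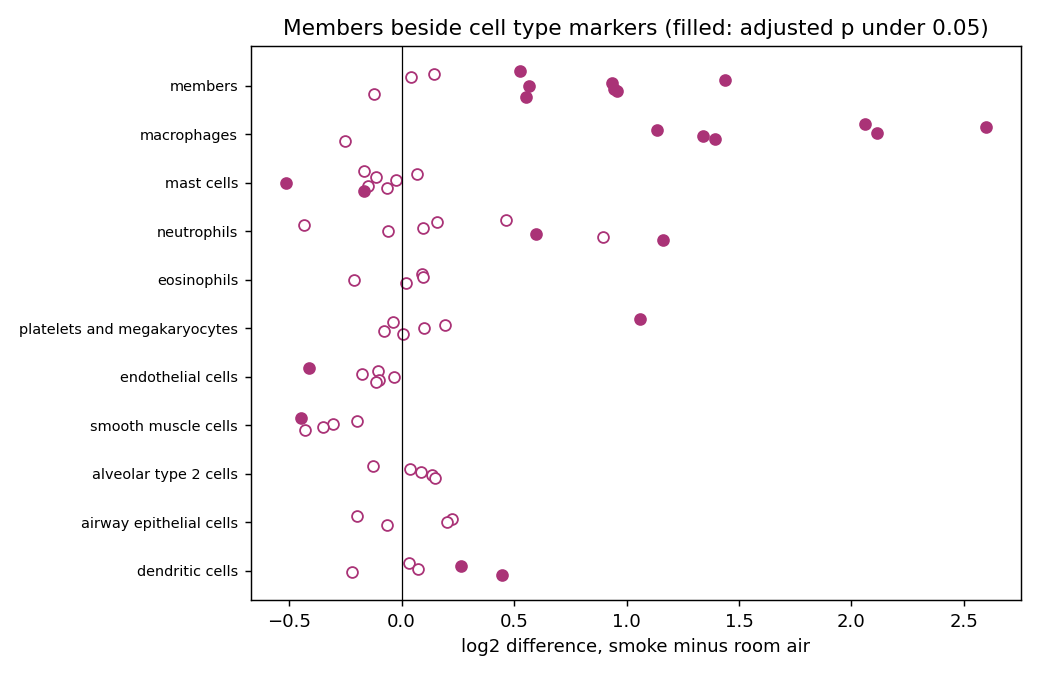
Log2 difference between smoke and room air for each member and each marker gene of 10 cell types, filled where the adjusted p was under 0.05. The macrophage markers, with a median of 1.39, reach further to the right than the members, with a median of 0.56.

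For the 4 called members with a fold change over 1.5, the most similar profiles over the 10 arrays were sought among 13864 other named genes well above background on all of them, by the root mean square difference of log2 ratios after subtracting the mean with room air. Ptgir was followed most closely by Csf2rb, a shared subunit of cytokine receptors, at 0.085, then by Lgi2 and the Fc receptor Fcgr2b, both at 0.11. Tbxas1 was nearest to Gclm, a subunit of the enzyme limiting glutathione synthesis, at 0.065, then to the lysosomal genes Laptm5 and Ctsa at 0.082 and 0.088. Alox5 was nearest to Ctsa, at 0.088, followed by Tbxas1 and Gpr160 at 0.11 each. Alox5ap was nearest to Cd300a, a receptor of myeloid cells, at 0.10, then to Cd207 and the redox gene Srxn1 at 0.13 each.

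The arrays were paired on 5 slides, smoke always in place 1 and room air in place 2, so place and group cannot be told apart. Within slides 1 to 5, smoke minus room air was 0.028, 0.65, 0.63, 0.45 and 0.88 for Ptgs1 and 0.58, 1.68, 1.79, 1.56 and 1.57 for Ptgir. The slide with replicate 1 gave the smallest difference for both. It was 0.89, 1.06, 0.95, 0.96 and 0.83 for Tbxas1, 0.74, 0.31, 0.77, 0.61 and 0.40 for Hpgds, and 1.15, 0.97, 0.96, 0.79 and 0.86 for Alox5. For Alox5ap it was 0.91, 1.02, 0.91, 1.24 and 0.71, and for Ltc4s 0.72, 0.61, 0.76, 0.32 and 0.37. All 7 called members were thus higher with smoke in 5 of 5 slides. Except for Ptgs1, their groups were apart, so any pairing of the arrays would give this, and it adds no separate support. With the slide as a block the same 7 members were called, and the share of all genes called was 13.8%.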

How the data were processed

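Lungs of 5 mice with cigarette smoke and 5 with room air were measured on 1 array each. Per the file headers, spots were quantified with Agilent Feature Extraction 9.5.3.1, and the deposited files hold red and green intensity with local background, and a log10 ratio. A deposited log2 table averages both channels (median signal minus background). Each of its 286449 values matched, within 0.0001, the same-numbered array of the opposite group, which settles its scale and centring, and its column medians were 7.34 to 8.03 as labelled room air and 7.66 to 8.06 as labelled smoke.

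Mean intensities were corrected by normexp (offset 50, which shrinks the fold of dim spots) and ratios by loess within arrays. Control spots were left out, outlier spots set missing and spots of a probe averaged. The study's methods name limma normalization and a Wilcoxon test with Benjamini-Hochberg adjustment. Here limma 3.58.1 (lmFit, eBayes; R 4.3.3) compared the groups two-sided without a block, and the Wilcoxon test was an alternative. These steps were tested on simulated data. Accessions named 22951 probes, current symbols 6659, synonyms 3109 and the file's own name 8455. Ptgr3, Siglec5 and Ear2 were not matched.

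Named genes were the members, each pathway gene past the threshold with up to 2 brightest others per list, the brightest marker per cell type, genes that check labels, and the 3 closest profiles of called members over 1.5-fold, without clone names. Members and lists were chosen with earlier results of these data known. Ptger4, Fabp4, Cma1, Fcer1a, Cpa3, Il5ra, Myh11, Cnn1, Des and Sftpa1 fall outside this rule and were named after their values were seen. No named gene was below background throughout 1 group only.

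Replicate numbers follow the slides. Deviations from group means correlated at 0.157, 0.460, 0.461, 0.550 and 0.415 within numbers, against a median of -0.124 and a highest value of 0.205 between numbers. Each within-number value exceeded the 0.1 set for pairing, though that of number 1 lay below the highest between numbers. The numbers, which share slides, were taken to pair the arrays. Slides were scanned on 4 days, which the slide block contains. Alternatives varied background correction, normalization, channel, test, variance model, dim probes, choice of probe, outlier spots, starting values and block, and left out each array. Quantile normalization of red was applied to pairs, pathway and marker genes after their other values were seen.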

Additional observations from a re-analysis of the deposited data

Results flagged for a closer look

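In 13 of 162 groups of 5 values, 1 lung stood far from the other lungs of its group, over 65 probes of the genes named, 10 marker sums and 6 pairs of members. Chance flags about 1 in 20 groups, and values of 1 lung are not independent. Room air replicate 1 is that lung in 7 of the 13, but Csf2rb and Fcgr2b had been chosen for profiles like that of Ptgir, and Hpgds minus Ptges contains the Ptges value. It read 0.70 for the brighter Ptgir probe, where the other lungs with room air lay between -0.48 and -0.15, and without it the difference was 1.64 (fold change 3.12). It read -0.87 for Ptges against -1.86 to -1.65, and 0.0035 for Hpgds minus Ptges against 1.18 to 1.22. It read 1.87 for Csf2rb against 0.72 to 0.95 and 0.093 for Fcgr2b against -1.12 to -0.86, whose differences without it were 1.64 and 1.69. The summed neutrophil markers were 190.4 in this lung against 30 to 47.0, and the summed platelet markers 8.17 against 5.49 to 6.20. What sets this lung apart was not tested.

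Smoke replicate 4 read 2.96 at the neighbouring Tbxas1 probe against 3.46 to 3.58, with a difference of 1.05 without it. It read 3.47 for Prxl2b against 3.73 to 3.78, with a difference of -0.078 without it. In red alone this lung lay within the range of its group at both, at 1.53 against 1.47 to 1.91 and 1.945 against 1.75 to 2.30. Smoke replicate 2 read 0.19 at the dimmer Ptgir probe against 0.083 to 0.11. In red alone it lay within the range of its group, at -4.05 against -4.99 to -1.52. Smoke replicate 3 read -0.086 for Pla2g4b against -0.19 to -0.18, and Pla2g4b stayed past limma's threshold without it (adjusted p = 0.0129). In red alone, however, this lung was the lowest of its group, at -0.44 against -0.32 to -0.095 on the log2 scale. Smoke replicate 5 read 1.35 for Ptgs1 minus Ptgs2 against 1.62 to 1.67. Room air replicate 5 read 0.96 for Ccr3 against 0.39 to 0.48, and the Ccr3 difference was -0.10 without it.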

How the results depend on the processing

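Of 24 alternatives, 22 did not use the deposited table. In these Ptgir, Tbxas1, Hpgds, Alox5 and Alox5ap were past the threshold in 21, all but the exact Wilcoxon test, Ltc4s in 20, Ptgs1 in 9, and Ptgs2, Ptges and Alox15 in 0. Ptges turned negative with median centring (-0.065), scale normalization (-0.017) and without room air replicate 3 (-0.035) or 4 (-0.00039). Without single arrays it ran up to 0.21. Among the brightest probe of each member, low signal over background limits Hpgds and Alox15 most, whose red spots read 1.11 to 1.29 and 1.23 to 1.48 times background with room air and 1.39 to 2.05 and 1.06 to 1.24 with smoke.

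The count of probes called, 2906 (61.7% higher), was 5019 with slide as replicate block (55.6% higher), 1434 with median centring (47.9% higher), 1759 with red alone scaled to the 75th percentile, 13 with the deposited table in either order of its groups and 0 with the Wilcoxon test. Leaving out single arrays gave 2102 to 3660. The block changed no call among the members. Members called were 0 with the deposited table in either order and 0 with the Wilcoxon test, 5 with the scanner's own ratio, 6 with median centring and with each red setting, and 6 to 7 without single arrays. As labelled, the table gave -0.20 for Ptgs1, -0.89 for Ptgir, -1.38 for Tbxas1, -0.88 for Hpgds, -0.87 for Alox5, -0.41 for Alox5ap and -0.55 for Ltc4s. Its groups are those of the opposite arrays, which turns the signs. With groups exchanged, an alternative chosen after seeing the data, Ptgs2 and Ptges gave -0.014 and -0.078. The table holds no value for Alox15.

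For unequal change of members, the replicate block by exact sign flips cannot go below 0.0625, so no pair could pass, with differences of 0.38 for Ptgs1 minus Ptgs2, 1.07 for Alox5 minus Alox15, -0.37 for Hpgds minus Tbxas1, 0.52 for Hpgds minus Ptges, 0.90 for Tbxas1 minus Ptges and -0.40 for Ltc4s minus Alox5ap. In red alone scaled to the 75th percentile Ptgs1 minus Ptgs2 was 0.45 and Ltc4s minus Alox5ap -0.17, no longer past the threshold, and Hpgds minus Tbxas1 reversed to 0.54. With quantile normalization of red, chosen for pairs after seeing the data, the first 2 were 0.45 and -0.22, also not past it, and Hpgds minus Tbxas1 kept its sign at -0.90. The cause was not tested. Without single arrays the pairs ran, in the same order, from 0.26 to 0.46, 1.01 to 1.13, -0.44 to -0.32, 0.29 to 0.59, 0.73 to 0.99 and -0.47 to -0.29.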
